A study of Mus musculus with 32 samples.

Results

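Spleen and peripheral lymph node were compared in wild type mice, using 4 spleen arrays and 4 peripheral lymph node arrays out of the 32 arrays of the series. The arrays were chosen by their labels for tissue and genotype alone. All 8 came from female C57BL/6 mice aged 12 weeks, which carried no transgene and were the littermates of mice expressing CD30 ligand (CD30L, gene symbol Tnfsf8) on T cells from a CD2-CD30L construct. Each of the 4 mice gave both tissues, so every comparison below was made within the animal. The same tissues of the 4 transgenic mice, 8 further arrays, served as a second set of animals for the same tissue difference. Which nodes were taken, and whether nodes were pooled within a mouse, is not given in the sources used here. RNA was hybridised to Affymetrix arrays, and a level here is log2(intensity + 16) after quantile normalization, where a log2 level of 4 means that the probe set was listed at or below 0. A difference is always spleen minus lymph node on that log2 scale, so adding 16 understates the difference of a weakly detected gene.

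The spleen filters blood: its red pulp holds macrophages that take up ageing red cells and recycle their iron, and in the mouse it also makes red cells and platelets. Its white pulp and marginal zone hold the lymphocytes. A lymph node filters lymph instead, which enters through lymphatic sinuses lined by macrophages, while lymphocytes enter from blood across high endothelial venules. Whole tissue was measured, so fewer cells of a type and less RNA per cell cannot be told apart in any value below.

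Of 27022 probe sets tested, 7897 differed between the tissues at an adjusted p under 0.05 in limma's paired test (29.2%), 3710 higher in spleen (13.7%) and 4187 lower (15.5%). Without mouse 1, 2 or 4 the count was 4492, 5159 or 5197. At least 2-fold differences were called for 3269 probe sets (12.1%), 1894 of them higher in spleen (7.01%) and 1375 lower (5.09%). The split between higher and lower depended on the scaling: 47.0% of calls were higher in spleen after quantile normalization, 70.5% in the values as deposited and 38.3% when arrays were set to a common median, and the median difference over all probe sets was -0.05, 0.12 and -0.14 in turn. With 1 probe set per gene, 1388 of 13002 genes were called higher (10.7%), 2591 were called lower (19.9%) and the median difference was -0.14. These shares are the background of every list count below. Correlations between arrays lay at 0.965 to 0.986 within spleen, 0.968 to 0.978 within lymph node and 0.914 to 0.934 across the tissues. Actb, whose 3' to 5' signal ratio grows as RNA breaks down, had ratios of 3.25 and 3.58 in the spleens of mice 1 and 2 and of 1.65 to 1.85 on the other 6 arrays.

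**Figure D1:**
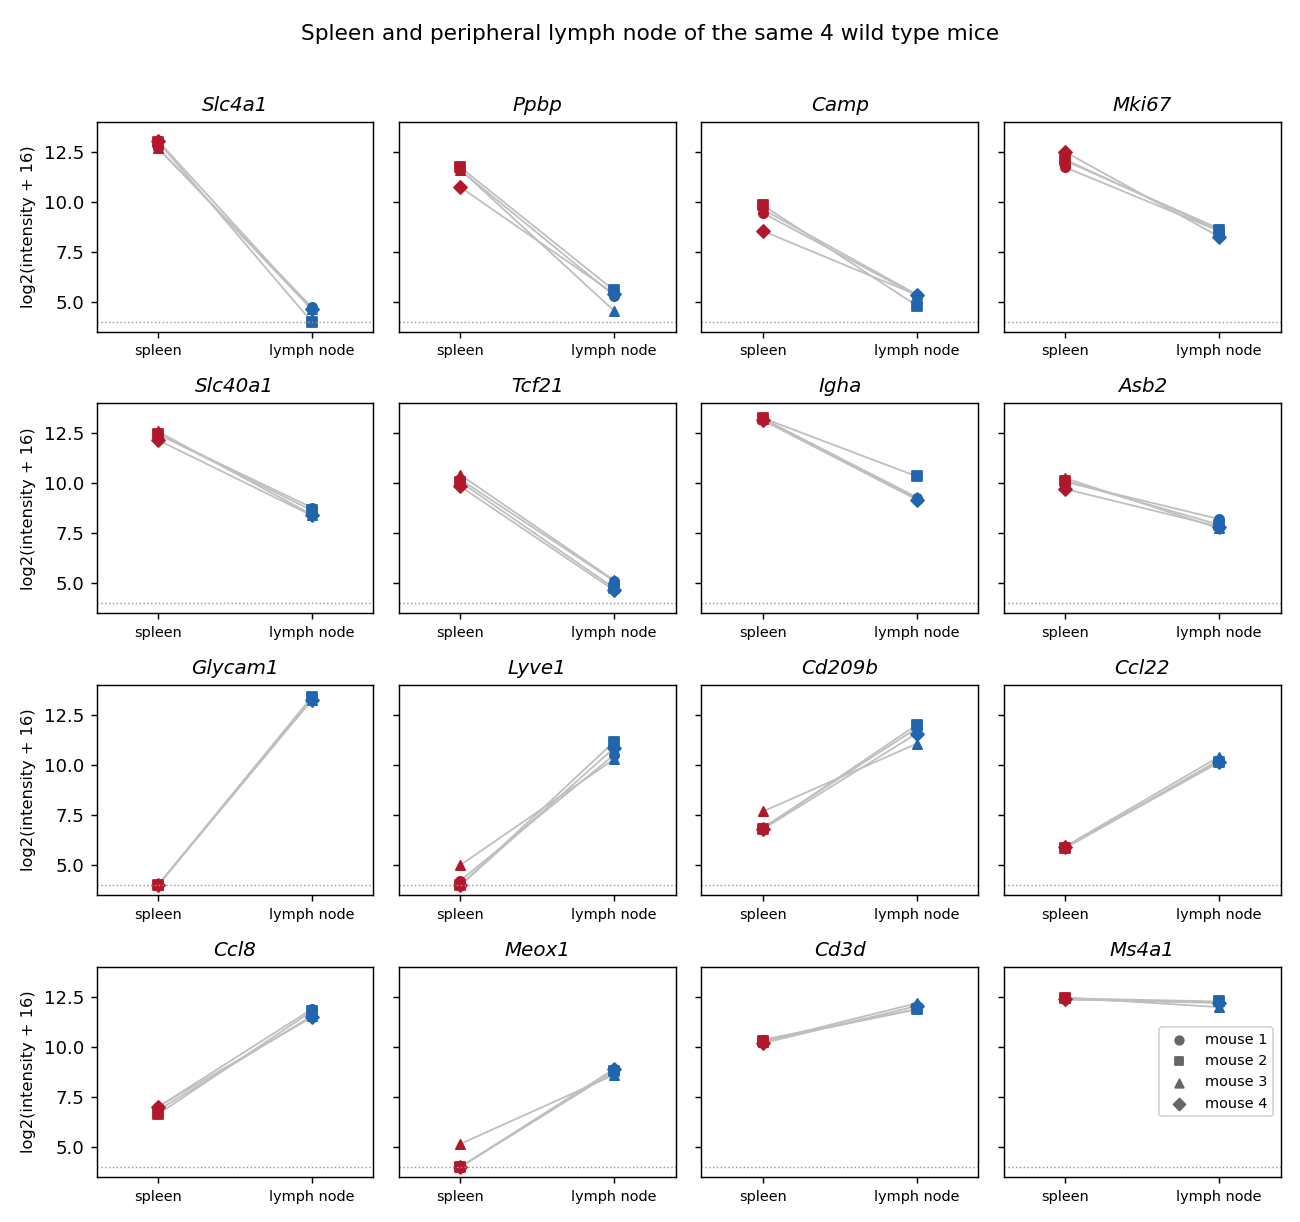
Log2(intensity + 16) of 16 genes on each array, spleen in red and lymph node in blue, with a line joining the tissues of 1 mouse and a symbol shape for each mouse. The dotted line marks 4, the level of values listed at or below 0. Slc4a1 to Asb2 were higher in spleen and Glycam1 to Cd3d lower in all 4 mice, while Ms4a1 did not pass the test.

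Red cell genes gave the largest rises. Of 22 erythroid list members tested, 21 were higher in spleen and none was lower, with a median difference of 4.79 against -0.14 over all genes. Slc4a1, the band 3 anion exchanger of the red cell membrane, stood at 12.67, 13, 12.69 and 13.04 in the spleens of mice 1 to 4 and at 4.73, 4.00, 4.62 and 4.63 in their lymph nodes. Its difference was 8.35 (SE 0.20, limma adjusted p = 3.6e-05, n = 4 mice), the largest rise of all, and ran from 6.71 to 10.34 when 64 or 1 was added in place of 16. Klf1, an erythroid transcription factor, measured 10.73, 10.86, 11.09 and 11.83 in spleen and 4.90, 4.39, 5.35 and 6.27 in lymph node. Every spleen was thus far above every node, and the difference was 5.91 (SE 0.18). The blood group carriers Rhag and Rhd differed by 6.63 (SE 0.21) and 6.31 (SE 0.28), and the carbonic anhydrases Car1 and Car2 by 6.82 (SE 0.36) and 5.86 (SE 0.21). Car1 was listed at or below 0 in 3 of 4 nodes, so its size is set by the added constant. It was 5.08 with 64 added and 9.97 with 1 added. Hemgn differed by 6.61 (SE 0.22) and Ermap, an erythroid membrane protein, by 5.71 (SE 0.20). Tspo2 and Slc38a5 were listed at or below 0 in all 4 lymph nodes, and stood at 8.84 to 10.72 and at 9.48 to 10.35 in spleen. Gata1, the master regulator of the lineage, was 3.49 higher (SE 0.16), and Tfrc, the transferrin receptor that brings iron into the precursors, was 2.92 higher (SE 0.12).

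All 9 haem synthesis genes tested were higher in spleen, with a median difference of 2.53. Alas2, the erythroid enzyme of the first step, stood at 11.71, 12.38, 12.57 and 12.82 in spleen and at 4.00, 4.95, 5.95 and 5.15 in lymph node, a difference of 7.36 (SE 0.21, limma adjusted p = 4.4e-05). Fech, which inserts the iron, differed by 2.89 (SE 0.18), Alad by 2.73 and Abcb10, a mitochondrial transporter, by 3.05 (SE 0.18). The globin probe sets tested gave mixed results. Hba-a1 had levels of 5.97 to 7.30 in spleen and 6.61 to 7.06 in lymph node, which overlapped (difference -0.33, SE 0.28, limma adjusted p = 0.41). For Hbb-b2 the pair of probe sets disagreed, with differences of 5.06 and -2.87, both called. Hbb-bs, Hbb-bt and Hbb-b1 had no probe set with a single symbol, so these globin genes were not tested. Globin genes are near-identical copies, and whether that set the values above was not tested. The globin values are uncertain.

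Members of the erythroid and haem lists moved together, and erythroid promoters are known to bind GATA1. For that reason upstream windows are shown for the 2 called members with the largest difference whose window held a searched word. The windows shown thus held a word by choice. They are the 250 bases before the gene start in RefSeq (GRCm38.p6), 5′ to 3′ on the gene's strand, for Alas2 (chrX:150547167-150547416, plus strand) and Rhag (chr17:40810899-40811148, plus strand), with capitals at GATA words.
Alas2: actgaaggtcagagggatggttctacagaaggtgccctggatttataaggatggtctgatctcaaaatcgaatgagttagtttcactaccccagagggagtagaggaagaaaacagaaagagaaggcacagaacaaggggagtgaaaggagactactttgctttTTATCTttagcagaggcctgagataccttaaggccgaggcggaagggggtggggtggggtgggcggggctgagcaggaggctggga
Rhag: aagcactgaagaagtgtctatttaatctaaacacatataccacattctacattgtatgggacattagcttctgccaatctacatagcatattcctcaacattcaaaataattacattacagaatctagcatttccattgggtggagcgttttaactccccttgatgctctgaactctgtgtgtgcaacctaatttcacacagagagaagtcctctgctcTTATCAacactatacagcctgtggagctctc
The words searched, on both strands, were AGATAA and its variant AGATAG, and likewise TGATAA with its variant TGATAG. Matches can overlap each other. Of 30 members called higher, 22 had an entry in the table, and 13 of these (59.1%) held a GATA word in such a window, against 29.7% of all 27025 genes. The CACCC words, CCACACCC or its variant CCACGCCC, were present for 1 of the 22 (4.55%) against 8.81% of all genes. A match is a description of letters, not of a bound site.

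Megakaryocyte and platelet genes were higher in spleen for 14 of 17 members tested and lower for none, with a median difference of 1.73. Ppbp, a platelet chemokine precursor, stood at 11.57, 11.72, 11.60 and 10.72 in spleen and at 5.31, 5.56, 4.54 and 5.39 in lymph node. That is a difference of 6.20 (SE 0.27, limma adjusted p = 0.00012), with the spleen of mouse 4 below the other 3. Gfi1b, a transcription factor shared by the erythroid and megakaryocyte lineages, was listed at or below 0 in all 4 nodes and stood at 9.16 to 10.09 in spleen. Gp9 and Gp1bb, subunits of the platelet von Willebrand factor receptor, differed by 3.62 (SE 0.14) and 3.30 (SE 0.23), and Clec1b by 1.73. In 3 nodes Gp9 stood at the floor of 4, and its difference was 2.00 with 64 added. Pf4, platelet factor 4, differed by 2.22 (SE 0.30). Itga2b (0.25, SE 0.19), Gp6 (0.04, SE 0.18) and Selp (0.28, SE 0.18) were the 3 members not called.

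Neutrophil granule genes were higher for 11 of 16 members and lower for none, with a median of 1.69. Camp, the cathelicidin precursor, measured 9.43, 9.82, 9.61 and 8.53 in spleen and 5.32, 4.81, 5.37 and 5.34 in lymph node, a difference of 4.14 (SE 0.28, limma adjusted p = 0.00048). Chil3 (3.50, SE 0.25), S100a8 (3.16, SE 0.26), Ngp (2.94, SE 0.17), S100a9 (2.86, SE 0.28) and Mpo (2.15, SE 0.28), the granule peroxidase, were also higher. For each of Camp, Chil3, S100a8, S100a9 and Ngp, the spleen of mouse 4 was the lowest of the 4 spleens. Elane, neutrophil elastase, differed by 1.23 (SE 0.37) and missed the threshold (limma adjusted p = 0.054), although its 4 spleens lay above its 4 nodes.

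Cell cycle genes were higher in spleen for all 28 members tested, against 10.7% of all genes, with a median difference of 2.08. Mki67, the proliferation antigen, stood at 11.71, 12.10, 12.04 and 12.48 in spleen and at 8.54, 8.56, 8.65 and 8.25 in lymph node. The difference was 3.58 (SE 0.19, limma adjusted p = 0.00023), or 12.0-fold. Ube2c, which serves the anaphase-promoting complex, measured 10.67, 11.07, 11.08 and 11.89 in spleen and 7.68, 8.01, 8.03 and 7.61 in lymph node, a difference of 3.34 (SE 0.25). Rrm2, a subunit of ribonucleotide reductase, differed by 2.93 (SE 0.16), Cdk1 by 2.55 (SE 0.17) and Top2a by 2.42 (SE 0.18). Mcm7 of the replicative helicase (1.43, SE 0.12) and the checkpoint kinase gene Bub1b (0.91, SE 0.15) gave smaller differences. The spleen of mouse 4 was the highest of the 4 for Mki67, Ube2c, Rrm2, Cdk1, Top2a, Mcm7 and Bub1b, and the same spleen had the highest mean over the erythroid list, 11.22 against 10.17 to 10.63. It also had the highest mean over the thymus and thymocyte list, 8.35 against 6.85 to 7.14, with Dntt at 8.53. The part of erythroid or lymphocyte precursors in the cell cycle values was not tested. The list's median was 2.34 in mice 3 and 4 alone and 1.66 in mice 1 and 2 alone.

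Upstream windows of 2 cell cycle genes are shown because the list moved as a whole. Such promoters are known for CCAAT boxes and for the cell cycle genes homology region (CHR). Chosen by the same rule, the windows shown held a word by choice. They are again 250 bases from RefSeq (GRCm38.p6), 5′ to 3′ on the gene's strand, for Mki67 (chr7:135716380-135716629, minus strand) and Ube2c (chr2:164769679-164769928, plus strand), with capitals at CCAAT and at the CHR words TTTGAA and TTCGAA on either strand.
Mki67: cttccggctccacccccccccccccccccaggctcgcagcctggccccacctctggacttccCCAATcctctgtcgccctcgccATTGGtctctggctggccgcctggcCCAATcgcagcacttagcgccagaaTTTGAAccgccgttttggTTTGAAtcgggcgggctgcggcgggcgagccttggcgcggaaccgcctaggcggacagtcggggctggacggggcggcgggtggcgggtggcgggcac
Ube2c: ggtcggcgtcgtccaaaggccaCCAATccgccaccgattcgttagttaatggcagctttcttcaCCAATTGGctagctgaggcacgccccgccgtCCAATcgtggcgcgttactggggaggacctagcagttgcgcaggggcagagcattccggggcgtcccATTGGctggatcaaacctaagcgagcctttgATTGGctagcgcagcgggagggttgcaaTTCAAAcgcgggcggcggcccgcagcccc
The word CCAAT can overlap its own reverse complement, as it does once in the Ube2c window. Of 28 members, 23 had an entry, and 19 of these (82.6%) held CCAAT against 37.5% of all 27025 genes. CHR words were present for 10 (43.5%) against 19.6%, and both together for 10 (43.5%) against 7.93%. The comparison is with all genes of the table and does not allow for base composition.

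Genes of red pulp macrophages and iron recycling were higher in spleen for 16 of 22 members and lower for 1, with a median of 1.23. Over all genes 10.7% were higher. Epor, the erythropoietin receptor gene, was counted in this list and was higher by 2.60. Slc40a1, ferroportin, which exports iron from the cell, measured 12.46, 12.46, 12.59 and 12.16 in spleen and 8.79, 8.65, 8.44 and 8.40 in lymph node. This was a difference of 3.85 (SE 0.13, limma adjusted p = 6.0e-05), or 14.4-fold. Hmox1, haem oxygenase, differed by 2.62 (SE 0.16), and Cd163, the receptor for haemoglobin bound to haptoglobin, by 3.07 (SE 0.26). Spic, the transcription factor of red pulp macrophages, stood at 9.80, 9.72, 9.93 and 9.52 in spleen and at 7.57, 7.80, 7.60 and 7.62 in lymph node (difference 2.09, SE 0.14). Treml4 (3.15, SE 0.14), Blvrb (1.88, SE 0.15), the biliverdin reductase gene, and Vcam1 (1.47, SE 0.12), an adhesion molecule, were higher as well. Csf1r, the growth factor receptor common to macrophages, differed by 0.25 (SE 0.15) and was not called. Pparg was the 1 member called lower (-0.83, SE 0.22), with arrays that overlapped and a call that was lost without mouse 1, 3 or 4.

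The marginal zone macrophage list ran the other way: 5 of 7 members were lower in spleen, 1 was higher, and the median was -1.66. Of these genes, Marco and Cd209b are the textbook markers of the splenic marginal zone. Sinus macrophages of lymph nodes are known to express several members of the list. Cd209b, the lectin SIGN-R1, stood at 6.87, 6.83, 7.68 and 6.80 in spleen and at 11.83, 12.00, 11.07 and 11.57 in lymph node. Its difference of -4.57 (SE 0.30, limma adjusted p = 0.00044) made it 23.8-fold lower in spleen. Msr1 (-3.89, SE 0.23), Timd4 (-2.47, SE 0.20), Siglec1 (-1.66, SE 0.17) and Marco (-1.19, SE 0.18) were lower too. Marco, a scavenger receptor, measured 9.84 to 10.38 in spleen and 11.02 to 11.65 in lymph node, and the 4 spleens lay below the 4 nodes. Cd5l, a secreted protein of tissue macrophages, was higher in spleen by 0.95 (SE 0.13). The 3 chains of C1q did not pass the test (C1qa -0.23, C1qb -0.05, C1qc 0.02), whereas Cfb, complement factor B, was lower in spleen by 2.38 on the log2 scale (difference -2.38, SE 0.18), as was Hc, complement C5 (-1.84, SE 0.13).

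A list of transcription factor genes, drawn up around the patterning of the embryonic spleen, was divided in the adult tissues. Of 9 tested, 6 were higher in spleen and 2 lower, with a median of 1.01. Tcf21, a transcription factor of splenic mesenchyme, stood at 10.19, 10.06, 10.42 and 9.84 in spleen and at 5.11, 4.77, 5.15 and 4.65 in lymph node, a difference of 5.21 (SE 0.12, limma adjusted p = 3.4e-05). Tlx1, without which no spleen forms, measured 7.72, 7.79, 8.03 and 7.85 in spleen and 5.06, 4.60, 5.40 and 4.83 in lymph node (difference 2.87, SE 0.15). Nkx2-3 (3.43, SE 0.19), listed at or below 0 in 3 of 4 nodes, Wt1 (3.29, SE 0.19) and Nkx2-5 (1.01, SE 0.19) were higher also, though the Nkx2-5 call was lost with no filter (limma adjusted p = 0.059). Nr2f2, also of the list, differed by 0.56 to 0.78 when 1 mouse was left out, with a limma adjusted p of up to 0.077. Meox1 and Nr2f1 were lower in spleen. Meox1 was listed at or below 0 in 3 spleens, stood at 5.15 in the spleen of mouse 3, and measured 8.78, 8.77, 8.60 and 8.89 in lymph node (difference -4.48, SE 0.26).

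High endothelial venule genes were lower in spleen for 10 of 13 members and higher for none, against 19.9% of all genes called lower, with a median of -1.84. Glycam1, a mucin-like ligand of L-selectin, was listed at or below 0 in all 4 spleens and stood at 13.38, 13.39, 13.25 and 13.27 in lymph node (limma adjusted p = 4.2e-06). No fold is given for it. Fut7, the fucosyltransferase that completes selectin ligands, was listed at or below 0 in 3 spleens and measured 7.32 to 7.75 in lymph node. The sulfotransferase genes Chst4 (-1.84, SE 0.16) and Chst2 (-1.49, SE 0.19), the sialomucin gene Cd34 (-1.95, SE 0.12), Cd300lg (-2.39, SE 0.26) and Ubd (-2.35, SE 0.13) were lower in spleen. Madcam1, the addressin for the integrin of gut homing lymphocytes, did not pass the test: it measured 8.50, 8.65, 8.31 and 8.34 in spleen and 8.58, 8.18, 8.83 and 8.75 in lymph node (-0.14, SE 0.19). Ackr1, the atypical chemokine receptor, did not pass either (0.06, SE 0.21).

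Among lymphatic endothelial genes, 7 of 13 were lower in spleen, 2 were higher and the median was -0.79. Lyve1, the hyaluronan receptor of lymphatic vessels, measured 4.23, 4.00, 5.01 and 4.00 in spleen and 10.51, 11.17, 10.30 and 10.86 in lymph node, a difference of -6.40 (SE 0.31, limma adjusted p = 0.00017). Lyve1 was listed at or below 0 in 2 spleens, so its size depends on the added constant. It was -4.65 with 64 added and -9.21 with 1 added. Pdpn, podoplanin, differed by -2.77 (SE 0.20). Prox1, the transcription factor of lymphatic identity, was weak in both tissues and did not pass the test (5.55 to 6.01 against 5.89 to 6.17). Clca3a1 was the clearest exception, higher in spleen by 1.62 (SE 0.18). Of 19 vascular endothelial genes, 8 were lower in spleen and 2 higher, against 19.9% and 10.7% of all genes. Stab2, a scavenger receptor of sinusoidal endothelium, was higher in spleen by 1.12 (SE 0.14), Egfl7 was lower (-1.37, SE 0.18), and Pecam1 did not pass (-1.56, SE 0.60). In mouse 3 Pecam1 stood at 8.90 in spleen and 8.05 in lymph node, while in the other 3 mice the node was higher.

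Lymphoid chemokines and survival cytokines were lower in spleen for 12 of 17 members and higher for 2, with a median of -0.97. The list was not confined to stromal genes and also held Lta and Ltb. Ccl19 and Ccl21a had no probe set with a single symbol and were not tested. Ccl8 measured 6.99, 6.63, 6.82 and 7.00 in spleen and 11.88, 11.78, 11.54 and 11.47 in lymph node, a difference of -4.80 (SE 0.15, limma adjusted p = 4.8e-05), or 27.9-fold lower. Tnfsf11, the RANK ligand of lymph node organisers (-2.08, SE 0.13), Cxcl16 (-1.58, SE 0.14), the B cell survival factor Tnfsf13b (-1.36, SE 0.13) and the T cell survival factor Il7 (-1.03, SE 0.11) were lower in spleen. Cxcl13, the chemokine of B cell follicles, differed by -0.65 (SE 0.12), a call lost without mouse 1, and Cxcl12 did not pass the test (-0.05, SE 0.12). Of 30 matrix and reticular genes, 17 were lower in spleen and 2 higher, with a median of -0.61. Postn (-3.02, SE 0.15), Lum (-2.90, SE 0.13), Col6a2 (-2.45, SE 0.16) and Dcn (-2.37, SE 0.13) were lower, Col14a1 was higher (1.84, SE 0.15), and Col1a2 did not pass (-0.09, SE 0.15). Col1a1, which encodes the other chain of type I collagen, was lower (-0.95, SE 0.20), a call lost with no filter and without mouse 1 or 3, and a second probe set of it did not pass (-0.23). Transcripts of fat were also lower in spleen, as given with the fat, muscle and gland lists below. Their part in these chemokine, matrix and vascular values was not tested. Among the nodes, that of mouse 3 had the highest adipocyte mean (11.52) and the lowest means of the matrix (9.10) and vascular (8.84) lists.

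T cell genes were lower in spleen almost as a block: 22 of 23 pan T cell members were lower and none was higher, with a median of -1.49 that ran from -1.61 to -1.44 over the 4 mice. Cd3d, a chain of the T cell receptor complex, measured 10.36, 10.28, 10.26 and 10.18 in spleen and 11.88, 11.87, 12.17 and 12.03 in lymph node, a difference of -1.72 (SE 0.13, limma adjusted p = 0.00066) or 3.29-fold. Cd3e, Cd3g, Cd247 and the kinase gene Zap70 differed by -1.32, -1.69, -1.71 and -1.71 (SE 0.12 each), and Thy1 by -1.81 (SE 0.12). The coreceptor genes differed by -1.67 for Cd4 (SE 0.22), -0.80 for Cd8a (SE 0.13) and -1.67 for Cd8b1 (SE 0.14). Cd27 was the 1 member not called (-0.47, SE 0.15, limma adjusted p = 0.060). Of the naive and recirculation list 5 of 12 were lower, against 19.9% of all genes. Among them were Dapl1 (-2.25, SE 0.18), the interleukin 7 receptor gene Il7r (-1.44, SE 0.18) and the homing receptor gene Ccr7 (-1.15, SE 0.15). S1pr1, the exit receptor, did not pass (0.06, SE 0.29).

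Regulatory T cell genes were lower in spleen for 11 of 13 members, with a median of -0.76, including Il2ra (-1.51, SE 0.14), Ctla4 (-1.06, SE 0.12) and Foxp3 (-0.75, SE 0.12), whose call was lost in the values as deposited. Follicular helper genes were lower for 8 of 10, with a median of -0.95. Among them Icos (-1.65, SE 0.12) is a costimulatory receptor of many activated T cells, and Cebpa (-2.09, SE 0.16) is better known from myeloid cells and fat. The medians of both lists were smaller in size than that of the pan T cell list, and that difference was not tested. Homing receptors were lower for 8 of 16 and higher for 1, against 19.9% and 10.7% of all genes. Cxcr6 (-2.14, SE 0.20) and Itgb7 (-0.85, SE 0.14) were lower, and the integrin gene Itga4 was higher (0.79, SE 0.14).

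B cell genes, in contrast, mostly did not pass the test: of 21 pan B cell members 2 were higher and 2 lower, 4 calls in all against 30.6% of all genes, and the median was 0.08. Ms4a1, CD20, measured 12.38, 12.42, 12.46 and 12.36 in spleen and 12.19, 12.26, 11.98 and 12.21 in lymph node (0.24, SE 0.12, limma adjusted p = 0.19). Cd79a (-0.05, SE 0.13) and Cd22 (0.01, SE 0.15) overlapped between the tissues. Cd24a was higher in spleen (1.31, SE 0.14), and it is known from erythroid precursors as well as B cells. Fcer2a, CD23 of follicular B cells, was lower (-0.72, SE 0.15), a call lost without mouse 1, 2 or 4. The other 2 calls, Btk (0.56, SE 0.14) and Vpreb3 (-0.48, SE 0.12), were lost when any 1 mouse was left out.

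Marginal zone B cell genes were higher for 3 of 11 members and lower for none, with a median of 0.49. Asb2 measured 10.07, 10.14, 10.26 and 9.72 in spleen and 8.22, 7.94, 7.75 and 7.84 in lymph node, a difference of 2.11 (SE 0.16, limma adjusted p = 0.00060) or 4.31-fold. Dtx1, a target of the Notch pathway that marginal zone B cells need, was higher by 0.88 (SE 0.14) and Plac8 by 0.76 (SE 0.13). Cr2, CD21, measured 10.70 to 11.06 in spleen and 9.85 to 10.54 in lymph node, apart in all arrays yet short of the threshold (0.61, SE 0.19, limma adjusted p = 0.053). S1pr3, a receptor of these cells, did not pass (0.12, SE 0.17), nor did Cd1d1 (0.26, SE 0.17).

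Of 11 antibody constant chain genes 3 were tested, and all 3 were called higher in spleen. Igha, the heavy chain of IgA, measured 13.20, 13.26, 13.23 and 13.15 in spleen and 9.25, 10.35, 9.31 and 9.19 in lymph node, a difference of 3.69 (SE 0.21, limma adjusted p = 0.00029) or 12.9-fold. Ighg3 was higher within each mouse by 2.10 (SE 0.23), although its arrays overlapped, from 8.96 to 11.28 in spleen and from 6.46 to 8.98 in lymph node. Ighm differed by 0.52 (SE 0.15), a call lost when any 1 mouse was left out. Jchain, which joins IgA and IgM units, was higher by 1.25 (SE 0.16). Of 15 plasma cell members 3 were higher and 2 lower, with a median of 0.18. Those 5 calls are about the share over all genes, 30.6%. Germinal centre genes were lower for 3 of 9 and higher for none, where 19.9% of all genes were lower, so that neither count sets its list apart: Fas (-1.24, SE 0.18), S1pr2 (-0.89, SE 0.18, lost without mouse 2 or 3) and Basp1 (-0.70, SE 0.12). Bcl6, the master regulator, did not pass (-0.19, SE 0.12).

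Natural killer and cytotoxic genes did not move together: 2 of 23 were higher, 8 lower and the median was -0.09. Over all genes 10.7% were higher and 19.9% lower. Klra8, an activating receptor of natural killer cells, was higher by 1.28 (SE 0.18), and Gzma, granzyme A, by 0.68 (SE 0.15), a call lost without mouse 1, 3 or 4. Ccl5 (-1.43, SE 0.13) and Nkg7 (-1.21, SE 0.13), which CD8 T cells express too, were lower in spleen. Ncr1, the receptor most specific to natural killer cells, did not pass (0.39, SE 0.17, limma adjusted p = 0.13). Cma1 belongs to mast cells, was placed in this list, and was the member furthest down: it measured 4.75, 5.19, 4.04 and 4.56 in spleen and 8.26, 7.88, 7.74 and 8.25 in lymph node (-3.40, SE 0.20).

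Genes of migratory dendritic cells, which reach nodes through lymph, were lower in spleen for 8 of 11 members and higher for none, with a median of -1.15. Ccl22 measured 5.85, 5.87, 5.94 and 5.92 in spleen and 10.25, 10.13, 10.41 and 10.16 in lymph node, a difference of -4.34 (SE 0.12, limma adjusted p = 4.3e-05) or 20.3-fold. Ccl17, its relative, was listed at or below 0 in 3 spleens and measured 6.86 to 7.44 in lymph node. Fscn1, the actin bundler of mature dendritic cells, differed by -2.88 (SE 0.21). The conventional dendritic cell list was divided, with 4 of 13 higher and 3 lower, against 10.7% and 19.9% of all genes. Cadm1 (1.25, SE 0.11) and the transcription factor gene Zbtb46 (0.75, SE 0.13) were higher, and the lectin gene Clec10a was lower (-4.23, SE 0.22). Of 10 plasmacytoid genes 5 were lower and 1 higher, with Siglech at -1.88 (SE 0.21) and Bst2 at -1.08 (SE 0.12). Rsad2, an antiviral gene, was the 1 interferon response member of 16 that was higher in spleen. It measured 11.74, 12.58, 12.29 and 12.70 in spleen and 9.85, 8.88, 8.60 and 8.10 in lymph node (3.47, SE 0.41, limma adjusted p = 0.0028), while Mx1, of the same response, was lower (-1.43, SE 0.26), a call lost with no filter (limma adjusted p = 0.062). The median of the interferon list was -0.85, -0.58, 0.20 and 0.33 in mice 1 to 4, so it changed sign between animals.

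**Figure D2:**
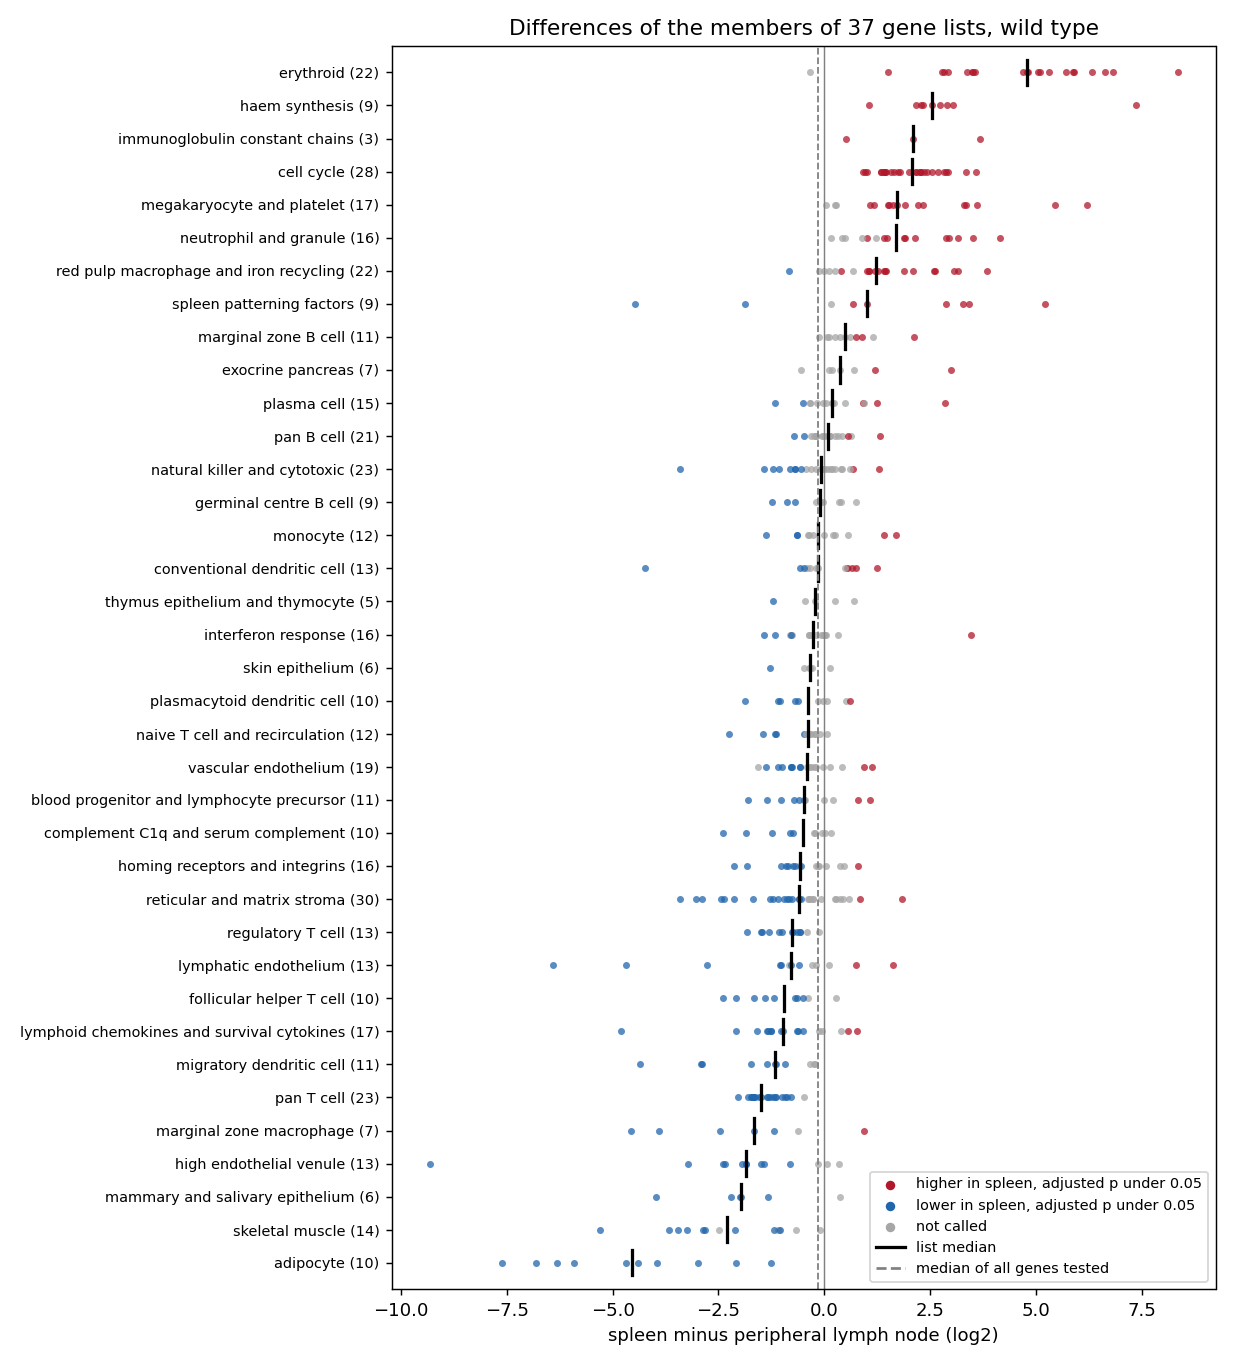
Spleen minus lymph node difference (log2) of each tested member of 37 gene lists in wild type mice, with the number tested in brackets; red points were called higher in spleen, blue points lower and grey points neither. Black bars are list medians, which run from -4.54 for adipocyte genes to 4.79 for erythroid genes, and the dashed line is the median over all genes, -0.14.

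Genes known from fat and muscle, and some known from glands, were also higher in the lymph node arrays. Where their transcripts came from was not tested. All 10 adipocyte genes tested were lower in spleen, with a median of -4.54, and their mean level was 10.72 to 11.52 on the 4 lymph node arrays and 6.51 to 6.57 on the spleen arrays. Adipoq, adiponectin, measured 4.42, 4.25, 4.51 and 4.19 in spleen and 11.93, 11.71, 11.93 and 12.29 in lymph node, a difference of -7.62 (SE 0.16, limma adjusted p = 3.3e-05). Car3 (-6.81, SE 0.19), Pck1 (-6.32, SE 0.16) and Retn (-5.90, SE 0.19) were in the same range, and among the 12 largest falls they stood beside Thrsp (-5.81, SE 0.31) and Cyp2e1 (-5.18, SE 0.16). Skeletal muscle genes differed between nodes: their mean level was 9.83 in the node of mouse 1, 6.18 in mouse 2, 8.66 in mouse 3 and 6.42 in mouse 4, against 5.51 to 5.60 in spleen. Of 14 muscle genes 9 were lower in spleen, and the median of -2.30 over the list came from medians of -4.77, -0.61, -2.74 and -0.87 in mice 1 to 4. Cox8b, a mitochondrial gene of muscle and brown fat, was listed at or below 0 in all 4 spleens and stood at 8.21 to 11.35 in lymph node. The mammary and salivary list had 13 genes, of which 7 fell below the filter, Csn2, Lalba and Aqp5 among them. Of the 6 tested 5 were lower in spleen, with Amy1 at -3.98 (SE 0.14). In 2 of the 6 the 4 spleens lay below the 4 nodes. On the spleen side, Cela1, a pancreatic elastase, was higher (2.98, SE 0.12), a call lost in the fit over all 32 arrays. Cela2a was the only other of 7 exocrine pancreas genes called, and its call was lost without mouse 4, without the block, with no filter and in that fit. Dntt, a gene of lymphocyte precursors, stood at 8.53 in the spleen of mouse 4 and at 4.45 to 5.97 in the other 3.

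**Figure D3:**
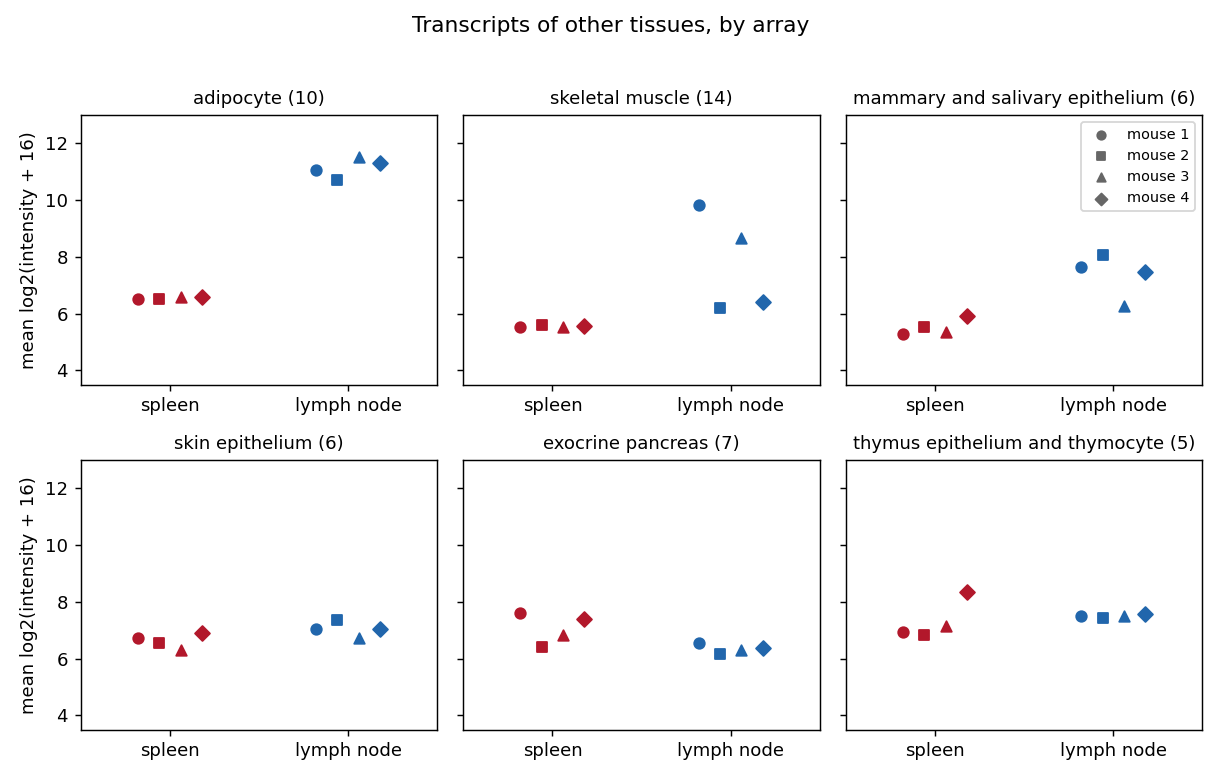
Mean log2(intensity + 16) over the tested members of 6 lists of other tissues on each of the 8 arrays, with the number of members in brackets, 1 symbol per mouse, spleen in red and lymph node in blue. Adipocyte transcripts are high in all 4 lymph nodes, and muscle transcripts vary from 6.18 to 9.83 between nodes.

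The tissue difference was measured again in the 4 transgenic mice, which share no array with the wild type. The probe sets tested there were those that had passed the wild type filter. Of these, 3674 were called in transgenic mice (13.6%), 1579 higher in spleen (5.84%) and 2095 lower (7.75%). Here too the split depended on the scaling: 43.0% of calls were higher in spleen after quantile normalization, 28.3% with a common median and 20.2% in the values as deposited, where 1289 were higher and 5104 lower. As deposited, the balance thus ran opposite to that of the wild type. Calls in both genotypes with 1 direction numbered 3059, which is 38.7% of the wild type calls and 83.3% of the transgenic calls, and 97.7% of the wild type calls had the same sign in the transgenic mice. The share with the same sign over all probe sets tested was not computed. In transgenic mice Slc4a1 differed by 7.78, Tcf21 by 5.07 and Cd209b by -4.80. The erythroid median was 3.79 with 21 members higher, and the high endothelial venule median was -1.64 with 11 lower and 1 higher. The cell cycle median was 0.88 with 19 of 28 higher, against 2.08 with 28 in wild type, and the pan T cell median was -0.96 with 22 lower, against -1.49 with 22. Some lists gave few calls in transgenic mice. Follicular helper genes were lower for 2 of 10 and higher for 1, against 8 lower in wild type. Regulatory T cell genes were lower for 4 of 13, against 11. Muscle genes were lower for 2 of 14 and higher for 1, against 9 lower. Of the 3 antibody chains 1 was called, and no germinal centre gene was. Tnfsf8 itself did not pass the test between the wild type tissues (0.05, SE 0.12), nor did its receptor gene Tnfrsf8 (-0.24, SE 0.13).

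No probe set's tissue difference was called different between the genotypes in limma (0%), and before adjustment 2038 fell under a p of 0.05 (7.54%), or 5759 in the values as deposited. The smallest adjusted p was 0.059, for Tubb4a, a neuronal tubulin gene. It was listed at or below 0 in all 4 wild type spleens and measured 7.50, 7.39, 7.86 and 7.59 in their nodes, whereas the tissue difference in transgenic mice was -0.45. Havcr1 (-3.38 in wild type, -0.98 in transgenic), Adam15 (0.91 in wild type, -0.18 in transgenic) and 1 probe set of Cdc20 (1.42 and 0.37) followed. Mki67 differed by 3.58 in wild type and 1.82 in transgenic mice, Cd3d by -1.72 and -0.92, and Madcam1 by -0.14 and 1.13, none of them past the threshold for the difference between genotypes. Pdcd1 (-0.70 and 0.82) and Trmt5 (-0.78 and 1.39) were the 2 genes called in both genotypes with opposite directions. Both wild type calls were lost without mouse 1, 2 or 3.

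**Figure D4:**
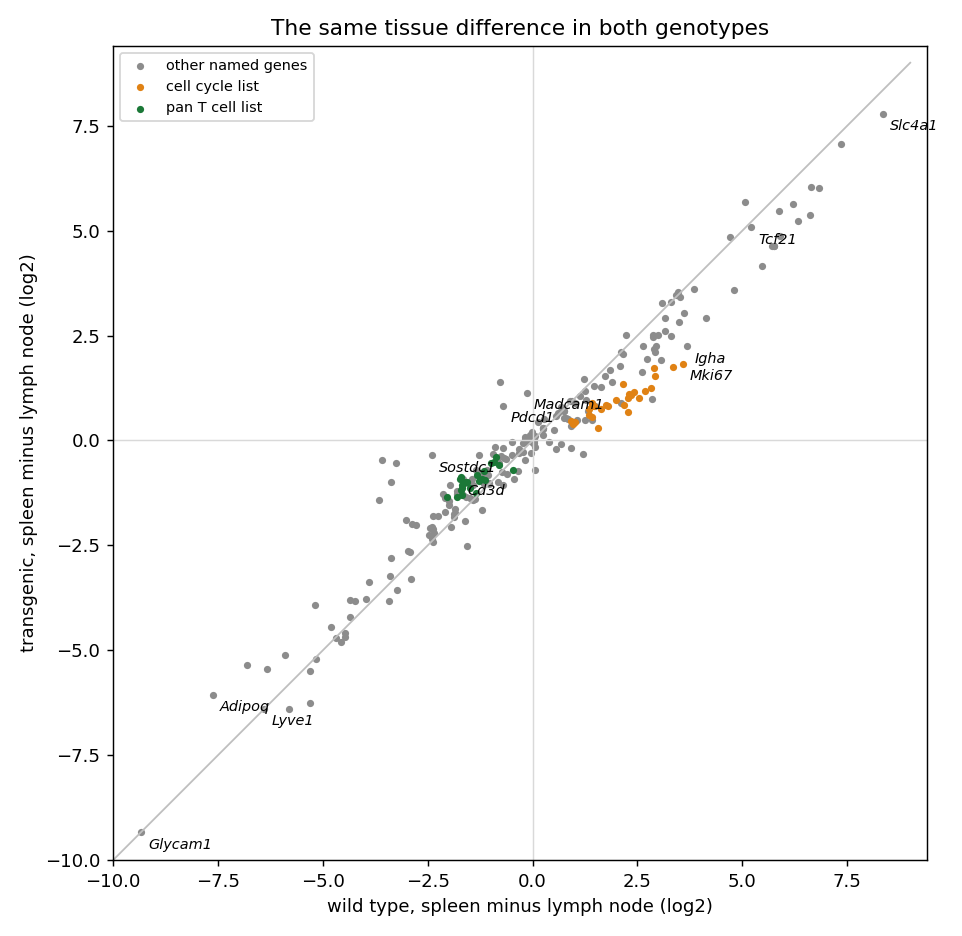
Spleen minus lymph node difference (log2) in wild type mice on the horizontal axis and in transgenic mice on the vertical axis, for the named genes and for all tested members of the cell cycle (orange) and pan T cell (green) lists; the line marks equal differences. Tcf21 lies near the line at 5.21 and 5.07 and Mki67 below it at 3.58 and 1.82, while the place of a gene listed at or below 0 in a tissue, such as Glycam1, is set by the added constant.

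The other 2 tissues of the wild type mice place these values, here with all 16 wild type arrays normalized together. Slc4a1 stood at 12.74 ± 0.20 (SD, n = 4) in spleen and at 4.48 ± 0.32, 4.54 ± 0.36 and 5.18 ± 0.37 in peripheral node, mesenteric node and thymus. Tlx1 stood at 7.73 ± 0.13 in spleen and at 4.91 to 5.08 in the other 3 tissues, which do not differ beyond their spread. Glycam1 was at 13.22 ± 0.07 in peripheral and 13.03 ± 0.04 in mesenteric node and was listed at or below 0 in spleen and thymus. Cd209b ran from 11.49 ± 0.42 in peripheral node over 11.19 ± 0.23 in mesenteric node and 6.94 ± 0.42 in spleen to 4.53 ± 0.20 in thymus, and the 2 kinds of node overlap within their spread. Mki67 stood at 11.96 ± 0.32 in spleen and 11.85 ± 0.09 in thymus, within their spread, then at 9.83 ± 0.24 in mesenteric and 8.37 ± 0.17 in peripheral node. Madcam1, alike in spleen (8.32 ± 0.16) and peripheral node (8.46 ± 0.29), reached 10.61 ± 0.32 in mesenteric node. Ccl8 stood at 11.53 ± 0.20 in peripheral node and at 7.74 ± 0.21 in mesenteric node. These are levels only, and no test was made across the 4 tissues.

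**Figure D5:**
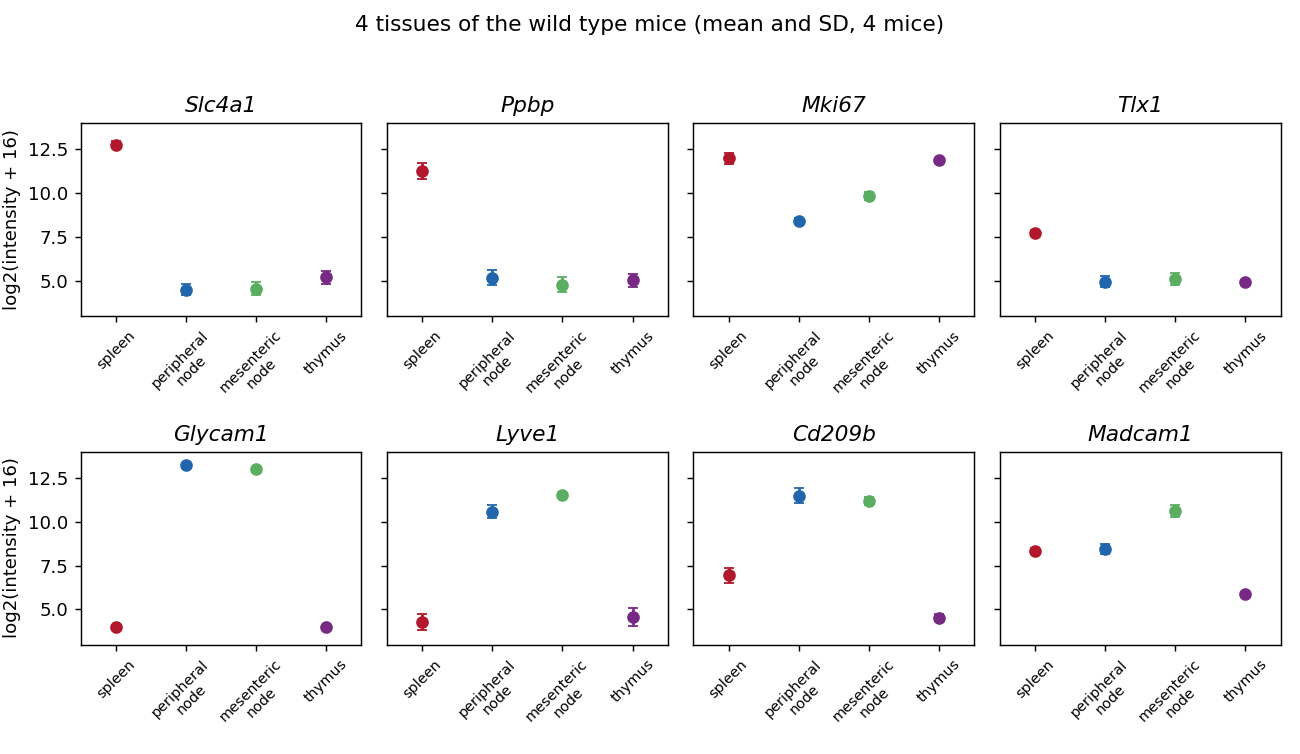
Mean log2(intensity + 16) with SD over 4 wild type mice for 8 genes in spleen, peripheral lymph node, mesenteric lymph node and thymus. Slc4a1, Ppbp and Tlx1 are high in spleen alone, Glycam1, Lyve1 and Cd209b are high in both kinds of node, and Madcam1 is highest in mesenteric node at 10.61.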

How the data were processed

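RNA of spleen and peripheral lymph node from 4 wild type and 4 transgenic mice was measured on Affymetrix arrays, using 5 µg labelled with biotin per the labels' protocols. The deposited values were intensity on a linear scale for 45101 probe sets. How probes were summarised, and whether arrays were scaled, is not given in the sources used here; 15.5% to 17.5% of the values on the 8 arrays were negative. The trimmed mean intensity was 147 to 272.

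Negative values were set to 0, 16 was added, log2 was taken and the 8 arrays were quantile normalized. After 64 control probe sets were left out, the 27022 with a mean above the 40th percentile were tested with limma 3.58.1 in R 4.3.3, with mouse as a block and Benjamini-Hochberg adjustment over all 27022 at 0.05. The pairing comes from the labels, which give both tissues the same animal; deviations of the 2 arrays of a mouse from their group means correlated at 0.11, -0.22, -0.14 and 0.02. Genotypes were compared by limma on within-mouse differences. With 4 mice the number of animals limits the precision.

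Symbols came from the platform annotation, updated through 34741 gene identifiers matched to GRCm38.p6: 34945 probe sets had 1 symbol, 932 several and 9160 none. Where a gene had several probe sets, the one of highest mean stood for it. Of 628 entries in 37 lists 509 were tested. The members and lists were chosen with earlier results of these data known. The genes named were the 12 largest rises and falls called without overlap, up to 5 called members per list with the smallest p, and 37 landmark genes, of which 32 were tested and the other 5 are not analysed here; any other gene named was picked with its values in view. The tests were tested on simulated data. Alternatives covered the added constant, normalization, filter, block, fit over 32 arrays, weights, moderation and each mouse left out; 3 choices of 2 mice were added after seeing the data.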

Additional observations from a re-analysis of the deposited data

Results flagged for a closer look

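Within each tissue, 520 groups of 4 arrays were examined. In 42 of them 1 array stood apart from the other 3 by more than Dixon's 95% critical value for 4 samples. Chance alone gives about 5% of groups, but that share does not apply where values sit at the floor. With the other 3 arrays at 4, any higher value was flagged by construction. This was so for Car1, Gp9, Nkx2-3, Meox1, Fut7, Ccl17, Acta1, Cd209d, Bpifb3 and Hoxc6. By array, the spleens of mice 1 to 4 accounted for 4, 2, 6 and 13, and the lymph nodes for 1, 5, 5 and 6. All values are log2 levels.

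The spleen of mouse 4 was low for Cd163, at 8.13 against 9.47 or more in the other spleens, and for the platelet genes Ppbp (10.72) and Clec1b (9.31). It was also low for the macrophage lectin Siglec1 (5.43), the adhesion gene Vcam1 (12.12), Ubd (8.23), Ccl5 (10.72) and Flt1 (7.67), and above the other spleens for Cd209d (5.42). Its list means were low for monocytes (9.14), pan B cell genes (10.61), natural killer and cytotoxic genes (7.06) and conventional dendritic cells (8.64).

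The spleen of mouse 3 stood above the others for Cd209a (7.19), Cd209b (7.68), Meox1 (5.15), Fut7 (5.43), Hoxc6 (4.23) and the mean of the red pulp macrophage list (10.43). In the spleen of mouse 1, Ccl17 (4.85), Acta1 (4.59) and Cela1 (9.70) were high and Tnfrsf8 (5.53) was low. In the spleen of mouse 2, Ctla4 was low (6.48) and Bpifb3 high (5.63).

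Among lymph nodes, mouse 1 was high for Car1 (5.41). Mouse 2 was high for Igha, at 10.35 against 9.19 to 9.31, and low for Slc4a1 (4.00), S100a9 (7.94), Camp (4.81) and Nr2f1 (7.47). Mouse 3 was low for Selp (6.02), Foxp3 (6.45), Cd79a (12.15), Hoxd8 (7.76) and the mean of the vascular endothelium list (8.84). Mouse 4 was high for Gp9 (4.44), Nkx2-3 (4.77) and Cd8a (10.32), and low for Plac8 (11.11), Cadm1 (8.85) and Cxcr4 (9.77).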

How the results depend on the processing

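The 7897 calls fell to between 4492 and 5630 when 1 mouse was left out, to 4902 with mice 3 and 4 alone and to 1468 with mice 2 and 4 alone, which are fits on fewer animals. The 3269 calls of at least 2-fold became 1988 with 64 added, 1982 with a filter at the 60th percentile, 1468 with mice 2 and 4 alone, and 3036 to 3125 with 1 mouse left out. Called list members, 321 in all, became 148 with mice 2 and 4 alone and 261 to 279 with 1 mouse left out. Without mouse as a block (no pairing) the wild type count was 9769 and that of list members 335. The transgenic count of 3674 became 6393 in the values as deposited and 6028 without the block. The difference between genotypes, called for 0 probe sets, was called for 1 in the values as deposited and 1 with a common median, both Tubb4a (limma adjusted p = 0.027 and 0.028), and for 2 with no filter, Gcc1 and Adam15 (limma adjusted p = 0.035 and 0.043). As deposited, the germinal centre median turned from -0.09 to 0.16 and the natural killer median from -0.09 to 0.12. The median over all probe sets turned likewise, from -0.05 to 0.12, and the cause was not tested. Of 223 genes followed, 187 were called, 162 of these in every fit that left out 1 mouse, and 120 under every alternative that gave them a value; 0 called values changed sign, and values not called were given no direction. Negative intensities, 15.5% to 17.5% of values, limit weakly detected genes to a bound.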

Other observations

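Hox genes, which specify position along the body axis, were looked at after their values were seen. Of 33 with a probe set 15 were tested, 8 were lower in spleen, 0 were higher, 7 were not called, and the median difference was -0.71; over all genes 19.9% were lower and the median was -0.14. Hoxd9 was listed at or below 0 in all 4 spleens and stood at 8.08, 8.54, 8.20 and 8.62 in lymph node. Hoxc8 (-3.38), Hoxc6 (-2.98), Hoxd8 (-2.38), Hoxa9 (-1.81), Hoxd10 (-1.61), Hoxa10 (-1.28) and Hoxb6 (-0.71) were the other 7 called. Of these, Hoxc6 was listed at or below 0 in 3 spleens. The calls of Hoxa10, Hoxb6 and Hoxd10 were lost with no filter, and on leaving out mouse 1, 2 or 3 for Hoxa10, any mouse for Hoxb6 and mouse 1 for Hoxd10. Across the wild type tissues, Hoxd9 was at 8.23 in peripheral and 7.43 in mesenteric node, and Hoxc8 at 7.47 and 8.49, while spleen and thymus stood at 4.00 and 4.00 for Hoxd9 and at 4.20 and 4.68 for Hoxc8.

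The Cd209 lectin family was also read as a whole after its values were seen. Cd209b (-4.57), Cd209d (-5.31), Cd209e (-4.47), Cd209g (-2.39) and Cd209f were lower in spleen, whereas Cd209a (-0.62) and Cd209c (-0.36) did not pass the test. Cd209d was listed at or below 0 in 3 spleens and Cd209e in 2. Peripheral and mesenteric nodes differed in level for Bpifb3, at 9.43 and 4.00, and for the mast cell protease Cma1, at 7.91 and 4.00. No test was made between the nodes.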
